A study of Homo sapiens with 6 samples.

Results

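Accessible chromatin in the outer 2 Mb of the human autosomes was profiled in GM12878 cells, a human lymphoblastoid line made from B cells with Epstein-Barr virus. The peaks of 6 libraries were merged where they overlapped or adjoined, and a merged region was taken as subtelomeric when its midpoint lay within 2 Mb of either end of an hg19 autosome. This gave 1575 subtelomeric regions of 54338 autosomal regions and of 56447 regions on all chromosomes. They were compared with 46863 interior regions, more than 10 Mb from an end, and the 5900 regions between 2 and 10 Mb were left out of that comparison. All 6 libraries were bulk ATAC-seq, in which the transposase Tn5 cuts and tags open DNA, of cells fixed in 1% PFA and used with no antibody. They differed in how the crosslinks were reversed, with 2 libraries for each protocol: an old buffer with SDS followed by DNA purification, a new buffer without SDS followed by purification, and the same new buffer with no purification before the PCR. The labels of the unpurified libraries name them bulk MI-ATAC-seq. Crosslinks were reversed at 65 °C in all 6 libraries. For the unpurified protocol the study's methods also name a changed lysis buffer, a quench with EDTA and removal of the supernatant before reversal. Differences from this protocol can therefore not be assigned to buffer or purification alone. The cells of every library came from this 1 line, so that the spread between libraries is not a spread between people.

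Chromosome ends carry arrays of the TTAGGG repeat, bound by the shelterin proteins, and the DNA next to them is a patchwork of segments copied between chromosomes. Inward of these duplications lies unique DNA that is rich in genes, in GC and in CpG islands on many arms. Read alignment in the duplicated part is uncertain, because a read that fits several places equally well has a low mapping quality and is removed. The hg19 assembly also begins with unsequenced bases on most arms, and the 5 short arms of the acrocentric chromosomes have no assembled base within 2 Mb, which left 39 ends.

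The labelled cell type was checked at its marker genes. Of 8 B-cell genes, MS4A1, CR2 and POU2AF1 had a called region within 1 kb of a start in all 6 libraries, CD79A in 4, CD22 in 3, CD79B and PAX5 in 1 each, and BLK in none. Of 7 T-cell genes only CD8A was called, in all 6. Of 5 myeloid genes only CD14 was called, in 4 libraries, and none of 5 erythroid genes was called. Over all coding genes, 47.9% of interior and 42.4% of subtelomeric ones had such a region in all 6 libraries. Calls in all 6 were thus not more frequent among the B-cell genes, with 3 of 8. Among interior coding genes 37.2% were called in no library, beside 1 of the 8 B-cell genes. The libraries held 30136 to 38023 peaks, of which 931 to 1118 regions per library were subtelomeric. Total read numbers are unknown. The summit pileup, the number of reads over a peak's highest point, had a median of 20 to 22 in every library. Only called peaks enter this median, so that it does not show equal depth. The lowest background solved for any peak ran from 1.51 reads in the second library of the new buffer with purification to 1.86 in the second without it.

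The following 5 stretches of sequence, each from the plus strand of GRCh37 (hg19), show the kinds of region found. The first lies in the subtelomeric promoter region with the highest mean pileup, 259 bp from a start of TMEM18, a gene for a nuclear membrane protein. Capitals mark the letters GGGCGG or their complement, the core of the box bound by SP and KLF factors, which occurs 4 times in 200 bases.
TMEM18, chr2:676863-677062: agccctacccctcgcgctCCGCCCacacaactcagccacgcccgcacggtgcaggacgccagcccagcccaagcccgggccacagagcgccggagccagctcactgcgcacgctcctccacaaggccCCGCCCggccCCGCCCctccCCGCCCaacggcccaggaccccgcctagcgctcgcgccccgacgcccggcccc
The second lies in the region nearest to an assembled end that every library called, on 5p, 2853 bp from the first known base. Capitals mark its 21 CpG dinucleotides, and 69.0% of its bases are G or C.
5p end, chr5:13055-13254: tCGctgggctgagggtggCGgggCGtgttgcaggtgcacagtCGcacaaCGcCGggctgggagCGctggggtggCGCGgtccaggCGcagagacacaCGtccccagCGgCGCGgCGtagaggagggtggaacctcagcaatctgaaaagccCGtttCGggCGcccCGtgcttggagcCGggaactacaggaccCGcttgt
The third lies in the strongest intergenic region of the outermost assembled 100 kb, on 18p. Capitals mark CTGCACTGAT, which recurs 3 times at spacings of 68 and 67 bases. The whole 888-bp region matched itself at 61.6% of positions when shifted by 68 bases.
18p end, chr18:108206-108405: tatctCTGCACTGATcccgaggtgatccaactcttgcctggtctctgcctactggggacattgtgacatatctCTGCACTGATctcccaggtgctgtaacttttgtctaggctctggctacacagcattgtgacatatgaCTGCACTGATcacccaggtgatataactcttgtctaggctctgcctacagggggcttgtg
The fourth lies on 1q, in an intergenic region between ZNF692 and PGBD2. Capitals mark matches to the A box and the B box, the inner control elements by which RNA polymerase III genes for tRNAs are read, and RefSeq lists the leucine tRNA gene TRL-CAA4-1 as the next tRNA gene after ZNF692 in its GRCh38.p14 table.
1q end, chr1:249168031-249168178: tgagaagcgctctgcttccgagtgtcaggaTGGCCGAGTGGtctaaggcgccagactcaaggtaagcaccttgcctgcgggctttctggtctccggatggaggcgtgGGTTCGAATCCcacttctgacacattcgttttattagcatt
The fifth lies in an intron of NLRP3, the sensor of the inflammasome, 1647 kb from the end of 1q. Capitals mark a match to the NF-kB motif.
NLRP3, chr1:247603552-247603751: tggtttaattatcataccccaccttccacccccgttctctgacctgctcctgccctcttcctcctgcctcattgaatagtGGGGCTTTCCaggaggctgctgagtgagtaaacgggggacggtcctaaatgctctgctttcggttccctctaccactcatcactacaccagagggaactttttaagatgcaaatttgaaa

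These windows had very different signals. The TMEM18 region (chr2:676349-677747) had a mean pileup of 118 reads, with 121 and 94 in the old buffer, 125 and 121 in the new buffer with purification, and 126 and 119 in the new buffer without it. The 5p region (chr5:12854-13488) had 22 and 22, 30 and 25, and 17 and 25 reads in the same order. The 18p region (chr18:107866-108753) had 133 and 114, 112 and 107, and 112 and 127 reads. Its high pileup stood beside a CpG content far below that of the promoters, at 0.0765 of the number its base composition would give, and beside a share of unique 75-base words of 59.1% within 5 kb. The 1q region with the tRNA boxes (chr1:249167201-249168799) had 55 and 55, 65 and 65, and 62 and 71 reads, and its surroundings were 100% unique. Of the 1575 subtelomeric regions it alone (1 region) held both boxes in these forms, in order on 1 strand and 20 to 100 bases apart. The same held for 15 of 46863 interior regions and 17 of all autosomal regions. Other forms of the boxes were not searched, so that these are not counts of tRNA genes. The NLRP3 region had 68 and 59, 76 and 65, and 68 and 66 reads. In none of these 5 regions did a library fail to call a peak.

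Subtelomeric DNA held slightly more called regions per Mb than interior DNA. In each library the density was higher near the ends, with 13.7 ± 0.857 regions per assembled Mb (SD, n = 6) against 12.3 ± 1.06. The ratio was 1.11 on average and ranged from 1.04 in the first old-buffer library to 1.18 in the second library of the new buffer with purification. The exact sign-flip permutation test over the 6 libraries, two-sided, gave p = 0.03125, the smallest it can give, and 0.0365 after Benjamini-Hochberg adjustment over 7 comparisons of the zones. The difference was small beside the differences in content described below. Over the merged regions the density was 21.0 per Mb near the ends and 20.4 in the interior, a ratio of 1.03. By merged regions, 14 of 22 autosomes had the higher density near the ends. Without chromosome 19 the ratio per library was 1.07 with an adjusted p of 0.0729 in the same exact test. With unsequenced bases counted as sequence it was 1.01, with an adjusted p of 0.594 in the exact test.

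The density was not even within the 2 Mb. Over all libraries merged, it was 16 regions per assembled Mb in the outermost 0.1 Mb, 20.1 from 0.1 to 0.25 Mb, 27.9 from 0.25 to 0.5 Mb, 22.9 from 0.5 to 1 Mb and 18.4 from 1.5 to 2 Mb. From 2 to 3 Mb it was 16.5, and in the interior 20.4. The bins of highest density thus lay 0.25 to 1 Mb from the ends, and with all DNA up to 5 Mb taken as the outer zone the ratio per library was 0.996, with an adjusted p of 0.875 in the exact test. In the outermost 0.1 Mb only 55.6% of sampled 75-base words occurred once in the genome, against 93.7% from 0.25 to 0.5 Mb and 95.9% in the interior. All regions of the outermost bin, divided by its Mb of such unique DNA, gave 28.8, and those from 0.25 to 0.5 Mb gave 29.8. Regions in DNA that was not unique were counted too, so that these values are upper limits for unique DNA alone. At the 2 Mb limit itself, 47 regions lay just inside, from 1.9 to 2 Mb, and 71 just outside, from 2 to 2.1 Mb.

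**Figure D1:**
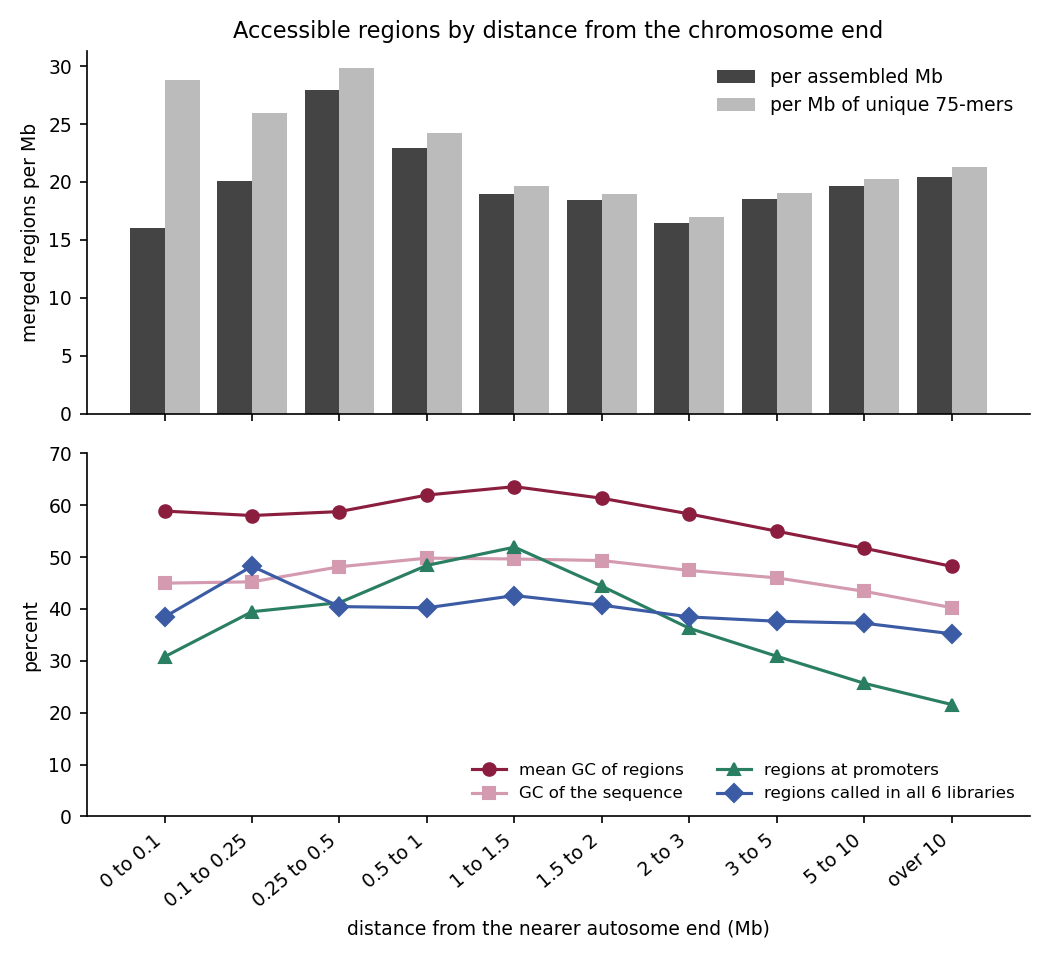
Merged regions by distance from the nearer autosome end in Mb. The upper panel gives regions per assembled Mb (dark bars) and per Mb of uniquely placed 75-base words (light bars); the lower panel gives, in percent, the mean GC content of the regions, the GC content of the DNA, the share of regions at promoters and the share called in all 6 libraries. Density was highest from 0.25 to 0.5 Mb, and the promoter share was highest from 1 to 1.5 Mb, at 51.9%.

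The excess lay at promoters. A promoter region was defined as one within 1 kb of the start of a protein-coding transcript. Of the subtelomeric regions, 725 (46.0%) were at promoters, 39 (2.48%) had their summit in a coding gene's exon, 375 (23.8%) in an intron and 436 (27.7%) between genes. In the interior the promoter share was 21.6%, the intron share 35.1% and the intergenic share 41.6%. Per library the promoter share was 56.3% near the ends and 28.8% in the interior, a difference of 27.5 percentage points that ranged from 26.3 to 28.7 (higher in 6 of 6 libraries, exact permutation p = 0.03125, adjusted 0.0365). It was higher on 19 of 22 autosomes. Promoter regions had a density of 9.64 per Mb near the ends and 4.39 per Mb in the interior.

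Regions away from promoters were sparser in the outer 2 Mb as a whole. Merged, they numbered 11.3 per Mb there and 16 in the interior, and the ratio per library was 0.684, from 0.640 to 0.710, below 1 in 6 of 6 libraries (exact permutation p = 0.03125, adjusted 0.0365). In the second library of the new buffer with purification, which had the fewest peaks, 4.99 such regions per Mb stood against 7.10, and in the first old-buffer library 6.23 against 9.73. The groups of values did not overlap between the zones. By distance, the merged density of these regions was 11.1 per Mb in the outermost 0.1 Mb, 12.2 from 0.1 to 0.25 Mb and 11.8, 9.11 and 10.3 per Mb in the 3 bins from 0.5 to 2 Mb. From 0.25 to 0.5 Mb it was 16.4 per Mb, slightly above the interior.

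The higher number of promoter regions went with the number of genes. The outer 2 Mb held 16.3 protein-coding genes per assembled Mb and the interior 6.48, so that 1.28 regions fell on each coding gene near the ends and 3.15 in the interior. A subtelomeric start was not called more often. Per library 47.6% of subtelomeric coding starts had a region within 1 kb, against 49.2% of interior starts, a difference of -1.53 percentage points on average, from -2.09 to -0.914, and lower in 6 of 6 libraries (exact permutation p = 0.03125, adjusted 0.0365). This small difference took the other sign for starts within 1 Mb of an end, where the share was 1.00 percentage point higher than in the interior with the same adjusted p of 0.0365 in the exact test. Counted by gene, 518 of 1223 subtelomeric genes (42.4%) and 7137 of 14888 interior genes (47.9%) had a promoter region in all 6 libraries, and 500 (40.9%) and 5543 (37.2%) had one in none.

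**Figure D2:**
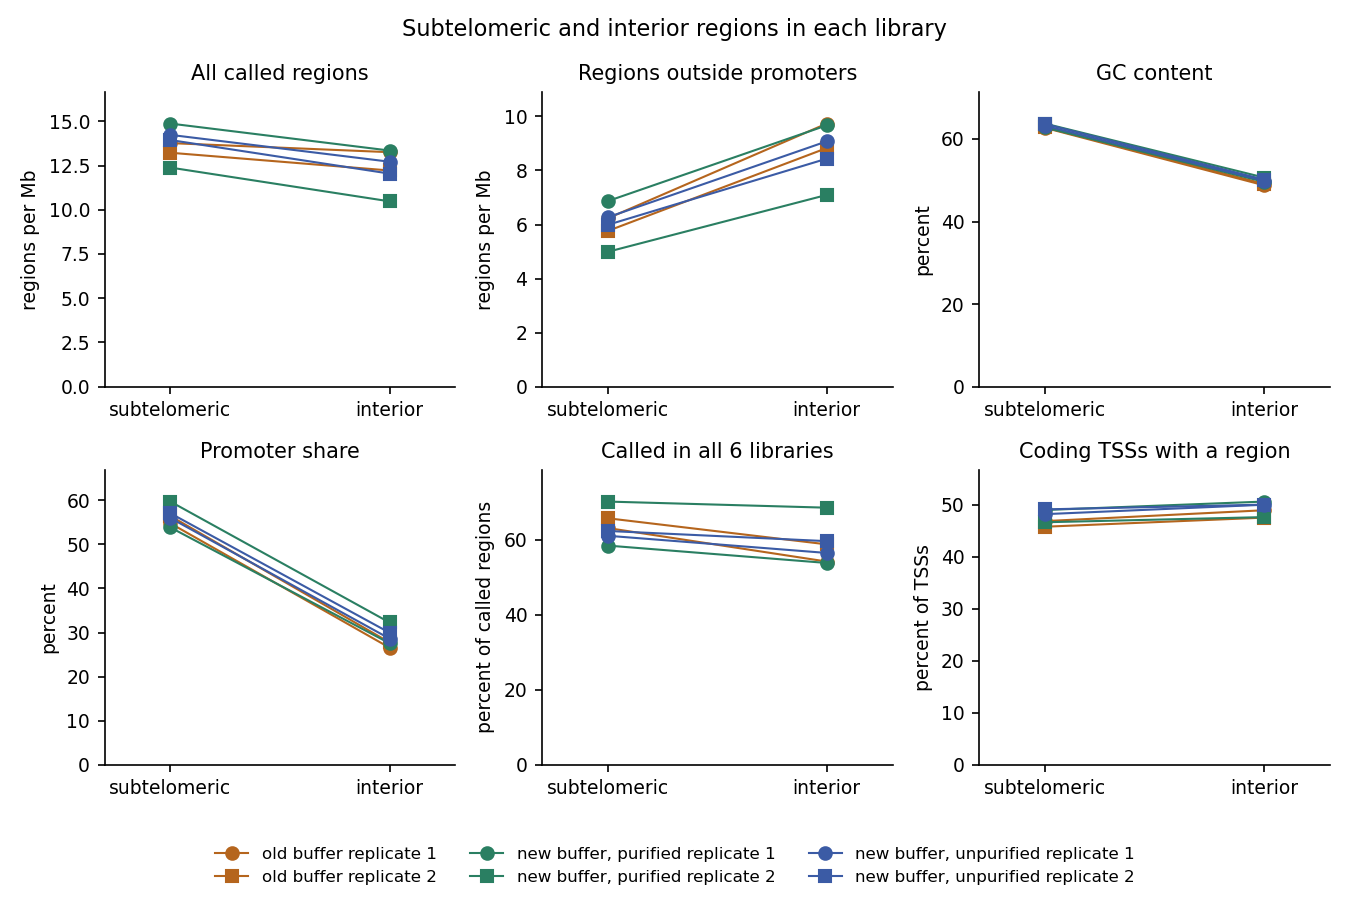
Each of 6 measures in subtelomeric and interior DNA, with 1 line per library, colour for the protocol and marker shape for the replicate. All called regions, regions outside promoters (both per assembled Mb), GC content, promoter share, share of regions called in all 6 libraries and share of coding starts with a region are on axes from 0. The lines of each panel run the same way, downwards to the interior for 4 measures and upwards for regions outside promoters and for starts. In the panel of regions called in all 6 libraries, the lines share the same recurrent regions.

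The subtelomeric regions were rich in GC. Their mean GC content was 61.3% ± 12.8 (SD over 1575 regions) against 48.2% in the interior, and 56.1% of them against 18% had a GC content of at least 60%. Per library, the mean was 63.1% near the ends and 49.7% in the interior, a difference of 13.4 percentage points with a range of 13.1 to 13.9 (higher in 6 of 6 libraries, exact permutation p = 0.03125, adjusted 0.0365). The DNA itself had a GC content of 48.9% near the ends and 40.3% in the interior, so that regions exceeded their surroundings by 12.4 and 7.96 percentage points. The median ratio of observed to expected CpG was 0.631 near the ends and 0.226 in the interior. CpG-rich DNA of this kind is typical of promoters whose CpGs escape methylation.

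The difference in GC held within both classes of region. At promoters it was 7.51 percentage points per library (70.8% against 63.3%), and away from promoters 9.03 percentage points (53.2% against 44.2%). Each was above 0 in 6 of 6 libraries, with exact permutation p = 0.03125. Of the subtelomeric promoter regions, 60.8% had a GC content of at least 70%, against 23.9% of interior promoter regions. Away from promoters, 31.9% of interior regions and 9.65% of subtelomeric ones lay below 40% GC.

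**Figure D3:**
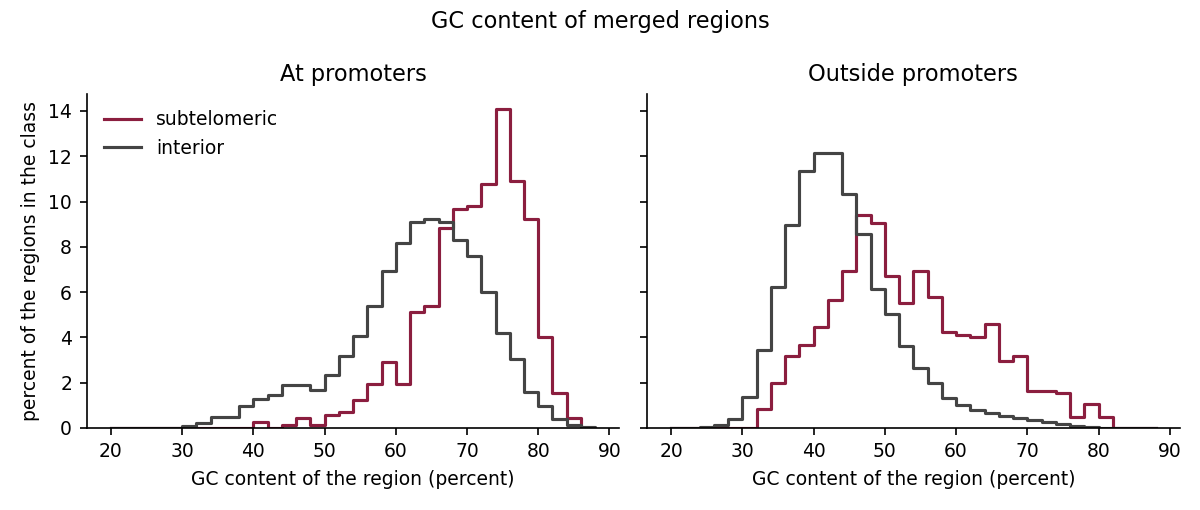
GC content of merged regions in steps of 2 percentage points, at promoters (left) and away from them (right), with subtelomeric regions in red and interior regions in grey, as percent of the regions of that zone and class. In both panels the subtelomeric curve is shifted to higher GC, by 7.51 and 9.03 percentage points in the mean over libraries.

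Recurrence, the number of libraries that called a region, differed in sign between the pooled regions and the regions of 1 class. Of the subtelomeric regions, 653 (41.5%) were called in all 6 libraries, beside 35.6% of all autosomal regions and 35.2% of interior ones, and 371 (23.6%) were called in only 1. Per library, 63.4% of called subtelomeric regions and 58.5% of called interior regions were called in every library, a difference of 4.91 percentage points with a range of 1.63 to 8.95. At promoters alone the difference was -4.88 percentage points (75.9% against 80.8%). Away from promoters it was -2.10 (47.6% against 49.7%), with a range of -4.15 to 1.09 and 2 of 6 libraries higher near the ends. The regions called in all 6 libraries are the same in every library's share, so that these values are not independent and are given as a description, with no test. In the other zone comparisons, too, most of a library's regions are these shared ones. Their p-values therefore measure only the spread between libraries. Promoter regions recurred in a higher share than others in both zones, and made up more of the subtelomeric ones. The direction at promoters varied with GC content. Of merged promoter regions with at least 70% GC, 59.2% near the ends and 55.3% in the interior were called in all 6 libraries. From 60 to 70% GC these shares were 64.7% and 75.3%, and from 50 to 60% they were 56.6% and 68.6%. From 40 to 50%, with only 7 subtelomeric regions, they were 57.1% and 36.7%.

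Signal at the summit was lower near the ends at promoters, and no difference passed the test over all regions or away from promoters. The median summit pileup of called regions was 20 to 24 reads per library near the ends and 20 to 22 in the interior, and their ratio of 1.05 did not pass the test (higher in 4 of 6 libraries and equal in 2, exact permutation p = 0.125). At promoters the ratio was 0.826, from 0.786 to 0.871, with 25.5 reads near the ends and 30.8 in the interior on average (lower in 6 of 6 libraries, exact permutation p = 0.03125). Away from promoters it was 0.996, with a range of 0.950 to 1.06 (exact permutation p = 1). As a description, the share called by all libraries was higher at higher pileup in either zone. It was 2.90% of subtelomeric regions with a mean pileup under 16 reads and 98.5% of those with 35 or more, against 2.52% and 97.8% of interior regions. The promoter difference also varied with GC content. Merged promoter regions with at least 70% GC had a median mean pileup of 22.25 reads near the ends and 22.3 in the interior. From 60 to 70% GC the values were 24.6 and 30.5, from 50 to 60% 21.7 and 29.3, and from 40 to 50% 20 and 20.1.

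The 39 ends ranged from 9.55 to 34.2 regions per assembled Mb, with a median of 21.2. The highest values were on 1q and 8q, with 63 regions and 34.2 per Mb each, and on 19p, with 31.4 per Mb. The lowest were on 8p with 9.55, 21q with 10.6 and 4q with 10.6. Equal density did not mean equal content. On 8q 81.0% of the regions were at promoters and their mean GC content was 71.1%, whereas on 1q 12.7% were at promoters and the mean was 49.2%. The end of 4q, where the D4Z4 repeat of facioscapulohumeral dystrophy lies, had 20 regions, and every library called 3 of them. On 19q every library called 42 of 57 regions, and 91.2% were at promoters. Across ends, the number of regions per Mb had a Pearson correlation of 0.637 and a Spearman correlation of 0.567 with the number of coding genes (39 ends of the same libraries, given as a description).

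**Figure D4:**
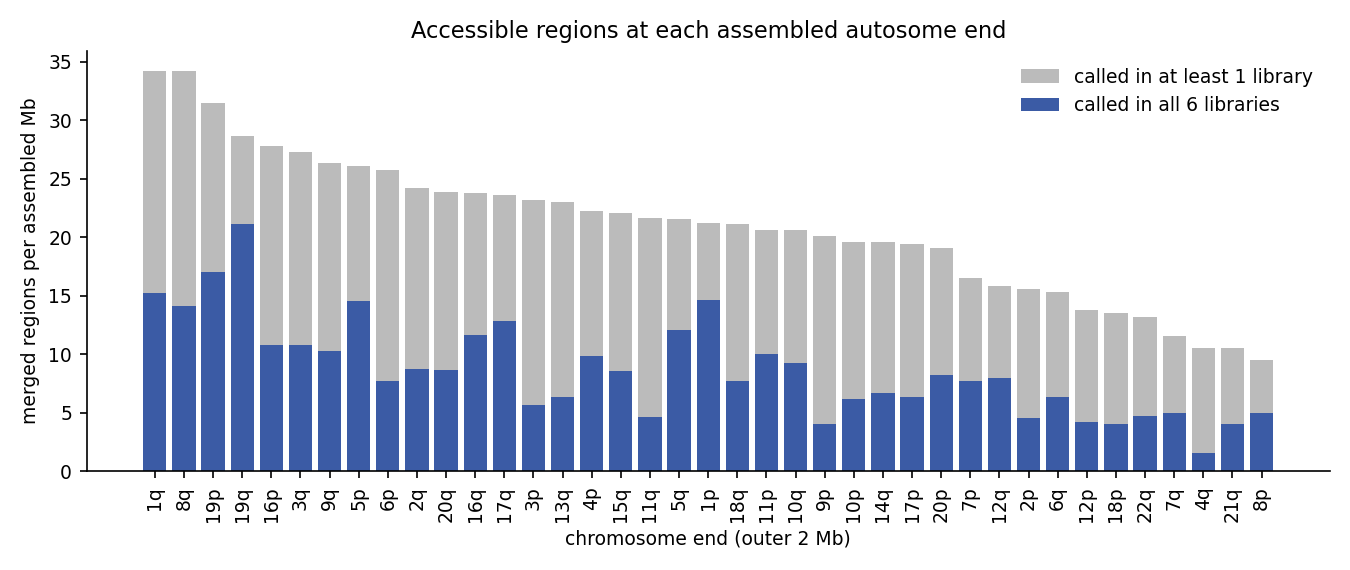
Merged regions per assembled Mb in the outer 2 Mb of each of 39 autosome ends, in descending order. Grey bars give regions called in at least 1 library and blue bars, drawn over them, those called in all 6. The bars fall from 34.2 on 1q and 8q to 9.55 on 8p.

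The outermost region called by all 6 libraries lay at a median of 160808 bp from the first assembled base, and within 100 kb on 13 of 39 ends. The nearest were the 5p region shown above, the region chr3:77224-78242 on 3p, 17.2 kb from the first base, and the region chr1:249218858-249219828 on 1q, 20.8 kb from the last. The 3p region had 29 and 28, 24 and 18, and 22 and 23 reads in the order of protocols given above, and a GC content of 35.6%. The 1q region had 42 and 28, 40 and 31, and 36 and 35 reads, and lay 19106 bp from the start of PGBD2. The farthest was on 11q, 725822 bp from the end. Of 708 windows of 100 kb, 192 held no region, and of the 12 windows with under 50% unique words 6 held none. The densest windows were 2 neighbours on 6p with 11 regions each, which span DUSP22 and IRF4, and a window in ADARB2 on 10p with 11.

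The TTAGGG repeat was hardly represented among the called regions. At least 1 unit was found in 13.8% of subtelomeric regions and in 16.7% of interior ones. None of the 1575 subtelomeric regions held 2 or more units back to back, against 4 of 46863 interior regions. Most arms begin with unsequenced bases, and reads that fit several places equally well are removed. These counts therefore cannot show whether telomeric arrays are open.

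The 2 strongest regions outside promoters were of another kind. The regions chr1:567357-567807 and chr1:569726-570133, with mean pileups of 187 and 136 reads, lie on MTCO1P12 and MTCO3P12, nuclear copies of mitochondrial genes, where 47.6% of words within 5 kb were unique. The first had 194 and 191, 184 and 186, and 181 and 188 reads. Such copies share sequence with mitochondrial DNA, which has no nucleosomes and is cut freely in ATAC-seq, and reads of the 2 sources were not told apart here. The study's methods state that peaks on nuclear insertions of mitochondrial DNA were filtered out, and these regions remain in the deposited lists. They were 2 of the 1575 regions, beside 5 of 46863 interior regions, and leaving out all such copies changed the call of none of the 6 tested zone comparisons.

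After TMEM18, the highest mean pileups were at chr6:170101712-170103086, 32 bp from a start of WDR27, with 92.5 reads, and at chr10:134350633-134351465, 182 bp from a start of INPP5A, with 92 reads. INPP5A encodes a phosphatase that removes the second messenger inositol trisphosphate. The broadest region called in all 6 libraries covered 1966 bp at PHF10, a subunit of a SWI/SNF chromatin remodeller, with a GC content of 75%. The next were 1795 bp at TUBB4B, a beta tubulin, and 1750 bp at ZMYND11, a reader of methylated histone H3.

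Gene lists were read at their promoters, beside the 42.4% of subtelomeric genes with a promoter region in all 6 libraries. All 15 genes of a list on telomeres, replication and DNA repair were called in all 6. TERT, the catalytic subunit of telomerase, had 37 and 28 reads in the old buffer, 29 and 37 in the new buffer with purification, and 30 and 44 in the new buffer without it. RTEL1, a helicase that unwinds telomeric loops, had 13 and 15, 13 and 15, and 18 and 14 reads. The levels of TERT and RTEL1 did not overlap in any library. NCAPG2, a condensin subunit, had the highest level of the list, with 91 and 65, 79 and 82, and 84 and 94 reads. TYMS, thymidylate synthase, had 49 and 35, 53 and 47, and 56 and 43 reads. Between these lay POLE, the leading-strand polymerase, at a mean of 28.7 reads, RAD52 at 30.0, CDT1 at 24.0 and FANCA at 25.7.

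Of 24 immune and B-cell regulators, 9 were called in all 6 libraries, 5 in some and 10 in none. This was close to the shares over all subtelomeric genes, 42.4% in all 6 and 40.9% in none. DUSP22, a phosphatase that restrains T-cell receptor signalling, had 83 and 67, 83 and 67, and 80 and 84 reads at its promoter, and 6 regions within the gene were called in all libraries. IRF4, a transcription factor of activated B cells and plasma cells, had 35 and 32, 41 and 30, and 38 and 42 reads. TCF3, the E protein of early B-cell fate, had 31 and 38, 31 and 35, and 28 and 21 reads. IRF7, an inducer of type I interferon, had 20 and 20, 26 and 26, and 29 and 26 reads. TRAF2, NOTCH1, TOLLIP, PIM3 and TYMP were the other genes called in every library, at means of 23.5 to 36.8 reads. Those with no call were PDCD1 and CD7, which T cells use, the costimulatory receptors TNFRSF4 and TNFRSF18, CBFA2T3, CARD9, TNFRSF6B and 3 IFITM genes. These were IFITM1, IFITM2 and IFITM3, whose products restrict viral entry. Within 5 kb of these IFITM genes 83.3, 93.5 and 79.5% of 75-base words were unique, and the part of read placement was not tested. ISG15, an interferon target, was called in 3 libraries with 13 to 22 reads, and DOCK8 in 5 with 10 to 19. NFATC1, SIGIRR and CD151 were called in 1 library each.

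**Figure D5:**
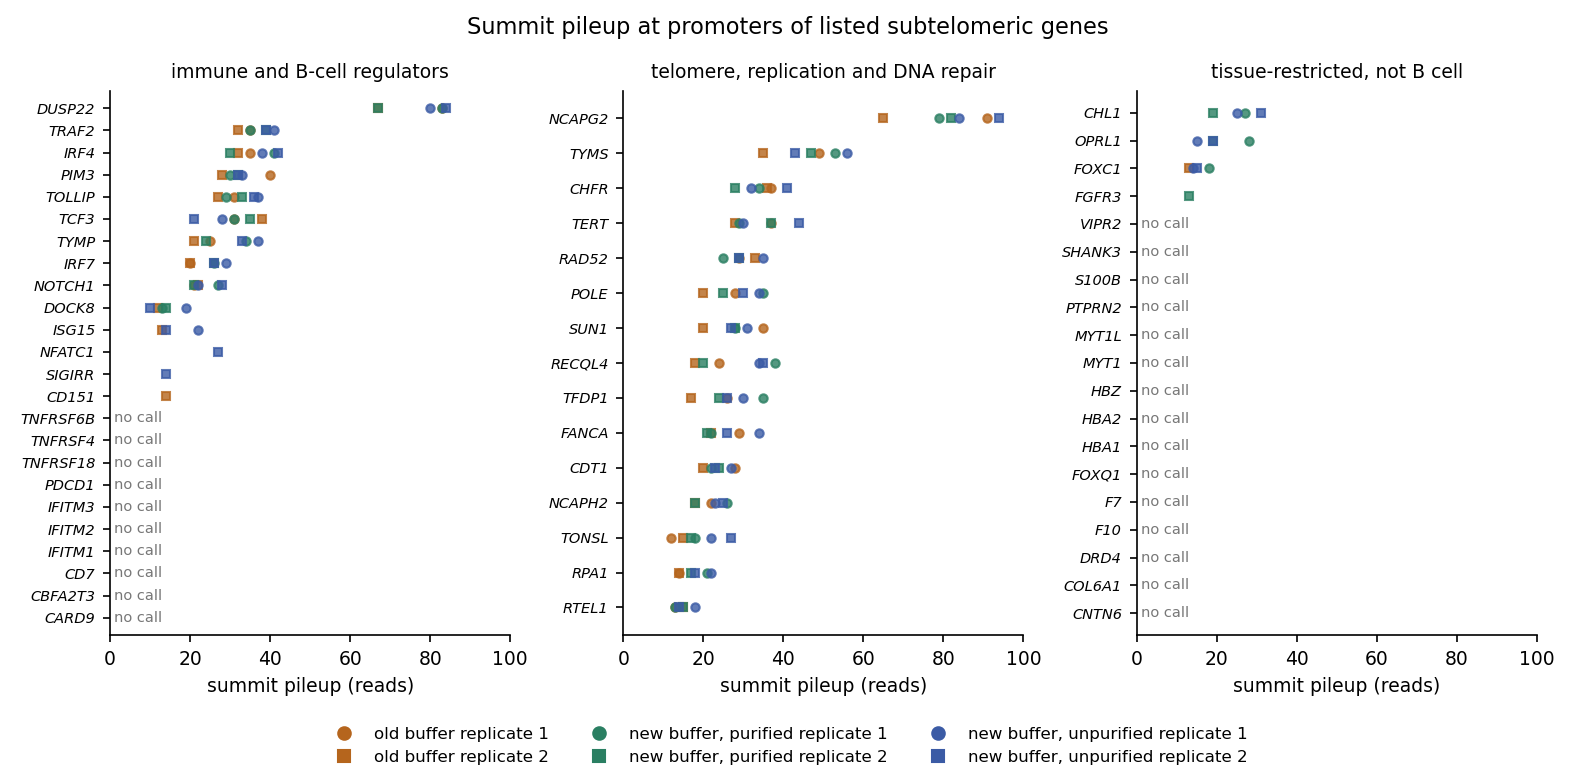
Summit pileup in reads at the promoters of listed subtelomeric genes, with 1 point per library that called a region (colour for the protocol, shape for the replicate) and "no call" where none did. All 15 genes of telomeres, replication and repair carry 6 points, while 10 of 24 immune genes and 15 of 19 tissue-restricted genes carry none. Over all subtelomeric coding genes, 42.4% were called in all 6 libraries and 40.9% in none.

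Of 19 genes that other tissues use, none was called in all 6 libraries, 4 were called in some and 15 in none. The uncalled included the globins HBA1, HBA2 and HBZ of red cells, the coagulation factors F7 and F10 of liver and the neural genes SHANK3, DRD4 and MYT1. Within 5 kb of HBA1, HBA2 and HBZ, 77.3, 68.2 and 95.5% of 75-base words were unique. Whether read placement had a part in their missing calls was not tested. FOXC1 was called in 4 libraries with 13 to 18 reads and FGFR3 in 1 with 13. The promoter of CHL1, a neural adhesion molecule, had no call in either old-buffer library. It had 27 and 19 reads in the new buffer with purification and 25 and 31 without it. The body of CHL1 was not closed in the old buffer, since it held 15 regions and every library called 4 of these. PTPRN2, CNTN6, MYT1L and VIPR2 had no promoter call but held 4, 3, 2 and 1 regions, none shared by all 6 libraries. OPRL1, the nociceptin receptor, had no call in the old buffer, 28 and 19 reads with purification and 15 and 19 without, in a region it shares with the start of RGS19, a regulator of G-protein signalling. Of 19 housekeeping genes with a start in the annotation, 17 were called in all 6, POLR2E in 5 and CSNK1D in 4. PSMB1 and TBP, which share 1 promoter region, had 82 and 73, 87 and 63, and 95 and 73 reads.

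Genes of a list named for duplicated subtelomeric families were each called in all libraries or in none. The list also holds genes in mostly unique DNA. Of 19 with a start in the annotation, 5 were called in all 6 and 14 in none. FRG1 on 4q had 79 and 62, 98 and 76, and 84 and 97 reads, and PGBD2 on 1q had 64 and 54, 76 and 70, and 74 and 72. ZNF141, ZMYND11 and ZNF718 had means of 41.2, 26.2 and 25.0 reads. In these 5 genes 89.1 to 100% of words within 5 kb were unique, so that their calls come from mostly unique DNA. Among the uncalled, the share was 0% for DUX4, the gene of the D4Z4 repeat, and for the olfactory receptor OR4F29, 12% for FRG2 and 30.4% for WASHC1. It was 100% for OR4F15 and ZNF595, which were also not called. The part of read placement in the missing calls was not tested.

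Motif content differed between the zones along with GC content. In the 200 bases around the summit, on both strands, the SP/KLF letters GGGCGG occurred in 45.4% of subtelomeric regions, against 19.3% of all autosomal regions. Away from promoters the share was 19.8% near the ends and 5.54% in the interior, and for the ETS letters CCGGAAG it was 3.65% and 1.26%. The NF-kB motif, by which the Epstein-Barr virus protein LMP1 acts on B cells, was in 12.8% and 8.80% of these regions. The AP-1 letters TGANTCA were in 13.5% and 18.1%, and the RUNX letters TGTGGTT in 9.06% and 13.1%. The CTCF core AGGNGGCAG was in 3.41% and 3.32%, and the PU.1 letters GAGGAAGT in 2.35% and 3.20%. In every library, SP/KLF, ETS and NF-kB were more frequent near the ends, and AP-1, RUNX and PU.1 less frequent.

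Among windows with a GC content of 50 to 60% away from promoters, the SP/KLF shares came to 9.77% and 8.59%, those of ETS to 1.88% and 2.25% and those of AP-1 to 15.8% and 14.3%. NF-kB stood at 17.7% of 266 subtelomeric windows and 14% of interior windows, and RUNX at 9.77% and 11.1%. These shares over regions are descriptions without a test. Of the 109 subtelomeric regions away from promoters with an NF-kB match, 39 were called in all libraries (35.8%), against 23.5% of those without one, and in the interior these shares were 34.7% and 26.3%. The shares with a match were also above those without one for SP/KLF (27.4% against 24.5%), ETS (9 of 31 regions, against 24.9%) and AP-1 (28.7% against 24.5%) near the ends. They were below for RUNX (20.8% against 25.5%), PU.1 (20% against 25.2%), CTCF (20.7% against 25.2%) and the TTAGGG repeat (15.7% against 25.7%). These rest on 77, 20, 29 and 51 regions with a match. In the interior the shares with a match were above for RUNX (32.8% against 26.2%) and PU.1 (30.0% against 26.9%). They were also above there for SP/KLF (37.9% against 26.4%), ETS (36.6% against 26.9%) and AP-1 (33.3% against 25.7%). Below were CTCF (20.3% against 27.3%) and TTAGGG (26.6% against 27.1%).

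The share of a library's regions that was subtelomeric was compared between the protocols, which may differ in steps other than buffer and purification. It was 2.93 and 3.05% in the old buffer, 3.12 and 3.30% in the new buffer with purification, and 3.13 and 3.23% in the new buffer without it. Each of the 4 values of the new buffer was above the 2 of the old. The purified new buffer exceeded the old buffer by 0.224 percentage points and the unpurified by 0.195 (exact permutation p = 0.333 each, adjusted 0.500, and 0.333 is the smallest p of 2 libraries against 2). The unpurified and purified new buffers differed by -0.0284 percentage points (exact permutation p = 1). With the 4 new-buffer libraries as 1 group, a grouping made after the values were seen, the difference was 0.209 percentage points (exact permutation p = 0.133). The mean GC content of called interior regions moved with the buffer too, at 48.8 and 49.1% in the old buffer and 49.6 to 50.7% in the new buffers, and its part in the share was not tested.

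Few regions were called in both libraries by 1 protocol and never by another. For the purified new buffer over the old one there were 34 of 1434 subtelomeric regions (2.37%), beside 1.83% of all autosomal regions, and in the opposite direction 22 (1.53%), beside 3.2%. For the unpurified new buffer over the old one there were 48 of 1442 (3.33%), beside 2.42%, and in the opposite direction 34 (2.36%), beside 2.8%. Between the 2 new buffers, 36 of 1444 (2.49%) were called in the unpurified one alone, beside 2.7%, and 23 (1.59%) in the purified one alone, beside 1.74%. The comparisons with the old buffer share its 2 libraries, and none of these counts was tested.

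The regions with the highest lower −log10 q in each of these 6 counts had pileups from below to above the library medians. The region chr11:449966-450456 at the promoter of PTDSS2, which makes phosphatidylserine, had 36 and 27 reads in the old buffer, 19 and 19 in the purified new buffer and no call in the unpurified one. The region chr9:1051961-1052280 at DMRT2 had 24 and 21 reads in the unpurified new buffer and no call elsewhere. An intronic region of MYT1L (chr2:1821244-1821667) had 15 and 16, and 25 and 21 reads in the new buffers and none called in the old one. The region chr7:157287925-157288180, in a long noncoding RNA gene, had 24 and 20 reads in the old buffer and no call in the new ones. An intronic region of IQCG (chr3:197633396-197633751) had 16 and 18 reads in the purified new buffer, 11 in the second unpurified library and no call in the other 3 libraries. An intronic region of ADARB2 (chr10:1757987-1758486) had 17 and 12 reads in the old buffer, 19 and 17 in the purified new buffer and no call in the unpurified one.

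The promoter regions of CHL1 and OPRL1 were 2 of 16 subtelomeric regions called in all 4 new-buffer libraries and in neither old-buffer one. These were 1.02% of the 1575 regions, beside 0.48% of all autosomal regions. The opposite pattern, both old-buffer libraries and none of the new, was found in 10 (0.635%), beside 1.15%. Of the 16, 9 were at promoters, among them those of SCRIB, a cell polarity gene, SBNO2, PYCR1, which makes proline, and MRPL12, a mitochondrial ribosomal protein. Their mean pileups ran from 12.8 reads up to 25.5 at CHL1 (chr3:238380-239336, 72.7% GC). The 16 regions had a mean GC content of 64.4% and the 10 opposite ones 56.8%.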

How the data were processed

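The 6 deposited peak lists, 1 per library, were made by the authors from reads mapped to hg19 with Bowtie2 2.1.0, filtered with Picard 1.79 and passed to MACS2, with 0.01 as the limit on q (the sources used here do not give its version). The methods say that reads of 1 condition were merged before calling, but each library has its own list here. They also name filters on peaks for nuclear insertions of mitochondrial DNA and blacklisted regions, but 2 subtelomeric and 5 interior regions lie on annotated nuclear copies of mitochondrial genes. Each deposited list gives, per peak, positions, a score, a fold enrichment (a ratio over local background), −log10 p and −log10 q. The score was not used. Summit pileups were solved from the deposited fold enrichment and −log10 p, and matched the latter within 0.001 for 100% of peaks. They cover counting error only after duplicates were removed.

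Peaks were merged with Python 3.11.15, pandas 2.3.3, NumPy 2.4.6, pysam 0.24.0 and SciPy 1.17.1, checked on simulated data against bedtools 2.31.1. Genes were those of GENCODE version 44 mapped to GRCh37. Uniqueness was the share of 75-base words, sampled every 500 bp, found once in the genome. Expected CpG numbers came from base composition. Zones were compared within each library by an exact two-sided sign-flip permutation test over 6 libraries, with Benjamini-Hochberg adjustment over 7 comparisons (the p for recurrence is left out, because all libraries share its numerators), and protocols by exact permutation over 3 comparisons of 2 libraries against 2. The labels do not tie libraries to separate cultures, so that p-values measure the spread between these libraries, which may be technical.

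The members, gene lists, motifs and tests were chosen with earlier results of these data known. Named regions were the 3 with the highest mean pileup in each class, the 3 outermost, the ends with the 3 highest and 3 lowest densities, and for each pair of protocols the one with the highest lower −log10 q. The broadest regions, the densest windows and the NLRP3 window (rank 5 of the regions outside promoters by mean pileup, shown for its NF-kB match) were picked, the 18p and 1q windows marked, the tRNA boxes searched and the pattern over all 4 new-buffer libraries counted after values were seen. Listed symbols without a start in the annotation (WASH1 and GNB2L1) gave no value. Of the lists, 2 genes are not reported here.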

Additional observations from a re-analysis of the deposited data

How the results depend on the processing

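Of 58 values of the 6 tested zone comparisons recomputed under other thresholds, zone limits, promoter windows and lengths, or with an end, a chromosome or the outermost DNA left out, 54 kept their direction and their side of the threshold. The density ratio was 1.07 without chromosome 19, 1.01 with unsequenced bases counted and 0.996 with a limit of 5 Mb, and the difference in starts with a region was 1.00 percentage point with a limit of 1 Mb. The cause was not tested. Restricting regions to 1 class, added after the data were seen, gave -4.88 percentage points in recurrence at promoters and -2.10 away from them, and pileup ratios of 0.826 and 0.996, while the difference in GC stayed positive. With 1 library left out, the smallest possible p is 0.0625, so no zone comparison could pass. The density ratio then ranged from 1.10 to 1.13, the GC difference from 13.3 to 13.5, the promoter difference from 27.3 to 27.6 and the recurrence difference from 4.09 to 5.71 percentage points. The density ratio away from promoters ranged from 0.678 to 0.693, the difference in starts from -1.68 to -1.41 percentage points and the pileup ratio from 1.04 to 1.06. The shares of the purified and the unpurified new buffer minus the old buffer ranged from 0.134 to 0.313 and from 0.137 to 0.252 percentage points, and that between the new buffers from -0.117 to 0.0576. Libraries share only replicate numbers. With the number as a replicate block, the 3 protocol differences (0.224, 0.195 and -0.0284 percentage points) gave p = 0.500, 0.500 and 1 in the exact permutation test over 2 pairs, whose smallest p is 0.500, so that neither fit could pass the threshold. No read totals were known, so a region without a call may hold reads below the calling threshold.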
